A study of Mus musculus with 10 samples.

Results

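Chromatin regions that differed between oxaliplatin-treated (Oxali) and untreated (Ctrl) Myc-CaP cells were compared in ATAC-seq peak lists. A region of the Oxali list that overlapped no region of the Ctrl list by 1 bp was counted as gained, and a region of the Ctrl list without an overlap in the Oxali list as lost. By this rule 53842 of 158621 Oxali regions were gained and 12654 of 122298 Ctrl regions were lost, out of 748625 regions in the 5 lists of the series. The description below is limited to strong regions, those at or under a q-value of 0.01 (a −log10 q of at least 2). They comprised 49898 gained regions, or 32.5% of 153700 strong Oxali regions, and 10769 lost regions, or 9.11% of 118154 strong Ctrl regions.

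Myc-CaP is a prostate cancer line from a male FVB/NJ mouse whose tumors are driven by a Myc transgene expressed in prostate epithelium. A single established line stands for the disease here. Ctrl cells received no agent, and Oxali cells received 2 µM oxaliplatin, with both groups sampled at 48 h. Each group had 2 libraries, which the authors pooled before calling peaks, so each value below comes from 1 list and no spread between libraries could be given. The remaining lists, used only to look up named regions, came from cells given cisplatin (Cispl), interferon-γ (IFNγ) or oxaliplatin with IFNγ (Oxali + IFNγ).

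Oxaliplatin forms platinum adducts on DNA that block replication and transcription. In ATAC-seq, a transposase inserts adapters into chromatin that is not wrapped in nucleosomes, so a called region marks an open promoter, enhancer or other regulatory element. Promoters rich in CpG dinucleotides are open in most cell types, while distal elements differ more between cell types and are often bound by factors such as AP-1, RUNX, NF-κB or steroid receptors. The line was checked against epithelial and prostate markers. Start sites of Krt8, Hoxb13, Foxa1, Gata3, Grhl2 and Elf3 lay in regions of both lists, whereas the epithelial genes Cdh1 and Epcam had no strong region at a start site in either list. Of the 21 genes of the prostate epithelial list, 12 had an open start site in Ctrl (57.1%) and 13 in Oxali.

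To show what the strongest changes look like in sequence, the sequence from 100 bp before to 100 bp after the summit is printed for 4 of the 10 strongest gained regions and 2 of the 10 strongest lost regions. They were picked after their values were seen, because they hold the motifs or the repeated sequence described below. All are RefSeq GRCm38 sequence, the assembly of mm10, on the plus strand, and capitals mark exact matches to the motifs named after each, while matches to other motifs counted below are left in lower case.
Prkar1b intron, gained, chr5:139118733-139118933, RUNX and steroid receptor hexamer: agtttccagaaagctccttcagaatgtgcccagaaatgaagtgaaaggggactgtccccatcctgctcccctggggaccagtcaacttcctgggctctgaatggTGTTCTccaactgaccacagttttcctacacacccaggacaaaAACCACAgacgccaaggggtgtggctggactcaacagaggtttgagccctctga
Thada intron, gained, chr17:84408845-84409045, RUNX and NF-κB: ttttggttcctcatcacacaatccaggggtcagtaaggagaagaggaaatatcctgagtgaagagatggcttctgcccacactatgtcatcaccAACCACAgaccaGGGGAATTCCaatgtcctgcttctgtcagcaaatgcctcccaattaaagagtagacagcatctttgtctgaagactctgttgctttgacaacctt
Arhgap22 intron, gained, chr14:33288024-33288224, AP-1 and NF-κB: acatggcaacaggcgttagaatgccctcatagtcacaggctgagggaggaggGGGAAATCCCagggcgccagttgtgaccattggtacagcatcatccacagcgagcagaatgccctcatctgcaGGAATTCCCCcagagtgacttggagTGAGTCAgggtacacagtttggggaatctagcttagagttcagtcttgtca
Near Usp26, gained, chrX:51862688-51862888, AP-1 and RUNX: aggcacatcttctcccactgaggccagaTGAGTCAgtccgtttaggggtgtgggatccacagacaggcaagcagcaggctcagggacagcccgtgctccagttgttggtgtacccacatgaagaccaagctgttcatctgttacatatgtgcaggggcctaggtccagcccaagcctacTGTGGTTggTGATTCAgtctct
Rhbdf2 intron, lost, chr11:116625706-116625906, CTCF: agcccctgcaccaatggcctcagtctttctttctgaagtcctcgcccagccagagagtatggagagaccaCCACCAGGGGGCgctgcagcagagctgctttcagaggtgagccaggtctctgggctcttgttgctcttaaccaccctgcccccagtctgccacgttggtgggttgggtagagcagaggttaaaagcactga
Near Fgfr2, lost, chr7:130040666-130040866, no motif marked, with a stretch of 37 bases that occurs again within the window: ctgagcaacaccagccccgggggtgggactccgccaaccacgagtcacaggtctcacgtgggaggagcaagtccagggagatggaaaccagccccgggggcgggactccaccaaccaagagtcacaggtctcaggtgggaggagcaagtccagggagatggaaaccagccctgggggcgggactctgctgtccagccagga

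Gained regions were weaker and shorter than regions present in both lists. The pileup is the number of read ends, each extended by the authors around the transposase cut, that overlap at the summit, and was recovered from the deposited values. It had a median of 41 in gained regions, with the middle 50% between 32 and 59. Regions of the Oxali list that were kept had a median of 135, and lost regions had 37. Gained regions had a median length of 215 bp, against 489 bp for kept and 185 bp for lost regions. The gained region just inside the limit had a −log10 q of 2.0011 and a pileup of 32, and the one just outside had 1.9987 and 29. A stricter q-value limit of 1e-05 was met by 72.8% of gained and by 55.3% of lost regions.

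The number of gains depended on how many regions each list held. When both lists were cut to the same number of strongest regions, 24792 were gained and 19611 lost, so that gains made up 55.8% rather than 82.2% of all changes. Depth as seen in the genome background of MACS2 was lower in Oxali, at 92.9% of Ctrl. With Ctrl pileups and backgrounds scaled to that depth, 49912 gains and 10332 losses were counted.

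The strongest gained regions lay mostly in introns and between genes, and were also open in the other lists of platinum-treated cells. An intron of Prkar1b, a regulatory subunit of protein kinase A, held the strongest gain, with a pileup of 372. There the Oxali + IFNγ list had 402, Cispl had 247 and IFNγ had 29. The gain in an intron of Thada reached 313 in Oxali, 365 in Oxali + IFNγ and 116 in Cispl, with no call in IFNγ. A region 242979 bp downstream of the start of Runx2, a transcription factor of bone development that is also active in prostate cancer, reached 273, 291 and 176 in these lists, and was not called in IFNγ. All 10 of the strongest gains were called in Oxali + IFNγ, with pileups from 231 to 630, and all 10 in Cispl, with 82 to 634. In the IFNγ list 5 of the 10 were called, with pileups from 26 to 185. The lists differed in size, with 174048 regions in Cispl, 174709 in Oxali + IFNγ and 118949 in IFNγ. The share of all gained, lost or shared regions called in these lists was not counted, so such counts for named regions have no general rate beside them.

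Of the remaining strongest gains, the Arhgap22 intron had a pileup of 253 in Oxali and 406 in Oxali + IFNγ, but 82 in Cispl. A region 103837 bp upstream of Inhba, which encodes the activin βA subunit, had 249, and a region 274580 bp upstream of Tmem132c had 239. Both lay far from any Ctrl region, at 31379 bp and 42987 bp. Regions near Tuft1 and Ppp1cc had higher pileups, 622 and 556, but the local backgrounds there were 118 and 96.9 and the nearest Ctrl regions 1823 bp and 690 bp away. In Unc13a the pileup was 504, with a background of 84.6 and a Ctrl region 520 bp away. These 3 gains sat beside chromatin that was open in Ctrl as well, whereas the Inhba and Tmem132c regions rose from the genome background of 11.3.

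**Figure D1:**
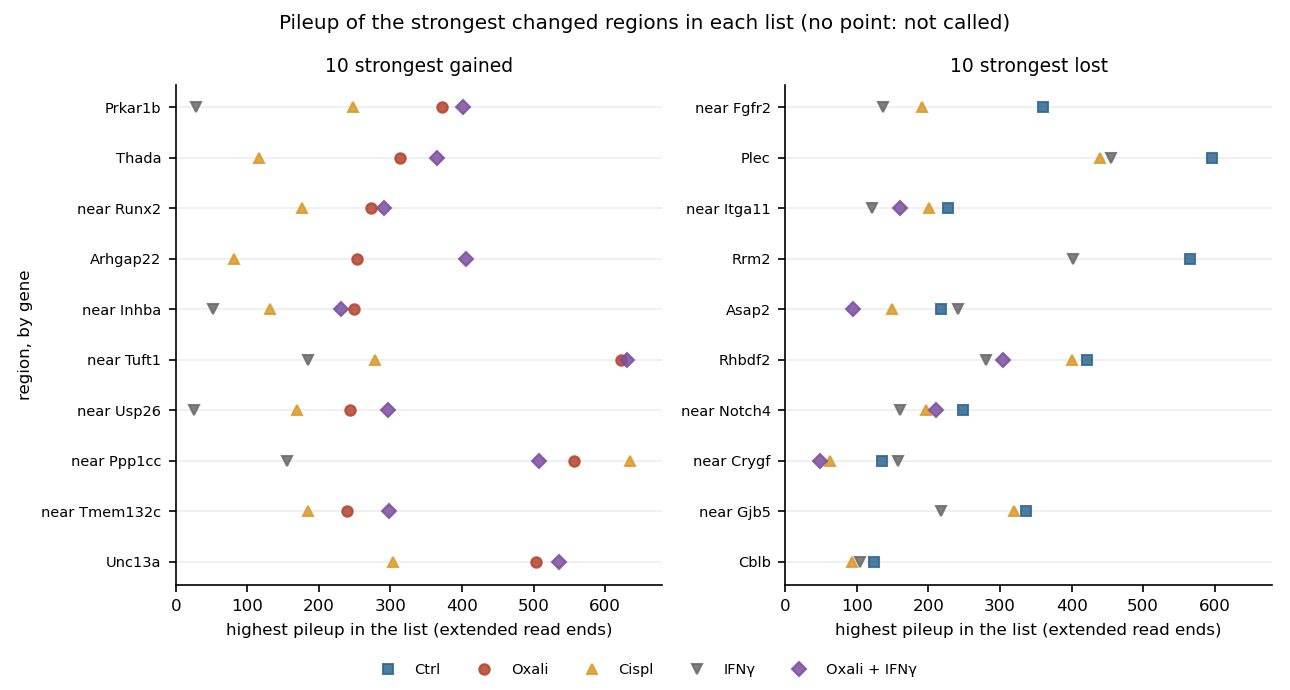
Highest pileup in each of the 5 lists (x axis, extended read ends) for the 10 strongest gained regions (left) and the 10 strongest lost regions (right), each named by the gene that holds it or the nearest start site. A missing point means no call in that list, and of the 10 gained regions 10 were called in Cispl, 10 in Oxali + IFNγ and 5 in IFNγ, while of the 10 lost regions 9, 5 and 10 were.

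All 10 of the strongest lost regions were called in IFNγ and 9 in Cispl. A region 127118 bp downstream of the nearest start site of Fgfr2, which encodes a receptor for fibroblast growth factors, had a pileup of 360 in Ctrl. It was called at 191 in Cispl and at 137 in IFNγ, and was not called in either list with oxaliplatin. A region at a start site of Plec, which encodes a cytoskeletal linker, had 596 in Ctrl and was likewise absent from both oxaliplatin lists, with 440 in Cispl and 455 in IFNγ. Its local background was 177.4, and an Oxali region lay 233 bp away. In an intron of Rrm2, a subunit of ribonucleotide reductase, the Ctrl pileup was 565 and its background 202.2, and among the other 4 lists IFNγ alone had a call, at 402. Regions in Asap2 (217 in Ctrl) and near Itga11 (228) were lost in Oxali but were called in Oxali + IFNγ at 95 and 160. Of the 10 strongest losses, 5 were called in Oxali + IFNγ, and 4 (at Plec, Rrm2, Asap2 and Gjb5) had an Oxali region within 500 bp, at 233, 394, 279 and 253 bp. Regions upstream of Notch4 and in an intron of Cblb had Ctrl pileups of 248 and 124. None of the 10 strongest gains had a Ctrl region as close.

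The gained share differed with the setting of a region. Within 1 kb of a protein-coding start site 16.4% of Oxali regions were gained, compared with 30.9% at 1 to 5 kb, 42.0% at 50 to 200 kb and 47.4% beyond 200 kb. At a pileup of 40 to 59 the gained share was 43.4% within 1 kb and 63.2% beyond 200 kb. At 100 to under 200 the order was reversed, with 27.5% and 10.4%. The lost share of Ctrl regions was 4.22% within 1 kb and 12.5% beyond 200 kb, but at a pileup under 40 it was 32.8% and 29.2%, and at 40 to 59 it was 14.4% and 16.0%. Regions with 0 to 1 CpG within 100 bp of the summit were gained in 38.9% of cases, and those with 10 or more CpG, as in CpG-island promoters, in 3.27%. In this CpG-rich class gains and losses were nearly equal in number, with 394 gained and 396 lost.

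Over regions of any pileup, gains were most frequent where Ctrl chromatin had few open regions nearby. With no other Ctrl region within 50 kb, 64.2% of Oxali regions were gained, and with over 10 others, 23.4%. Lost shares over regions of any pileup ran from 7.25% to 10.1% across the same classes. By the GC content of the surrounding 100 kb, the gained share was 40.2% in the lowest class and 26.8% in the highest. Gained regions lay at a median of 21.2 kb from a protein-coding start site, against 12.1 kb for kept and 14.6 kb for lost regions.

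**Figure D2:**
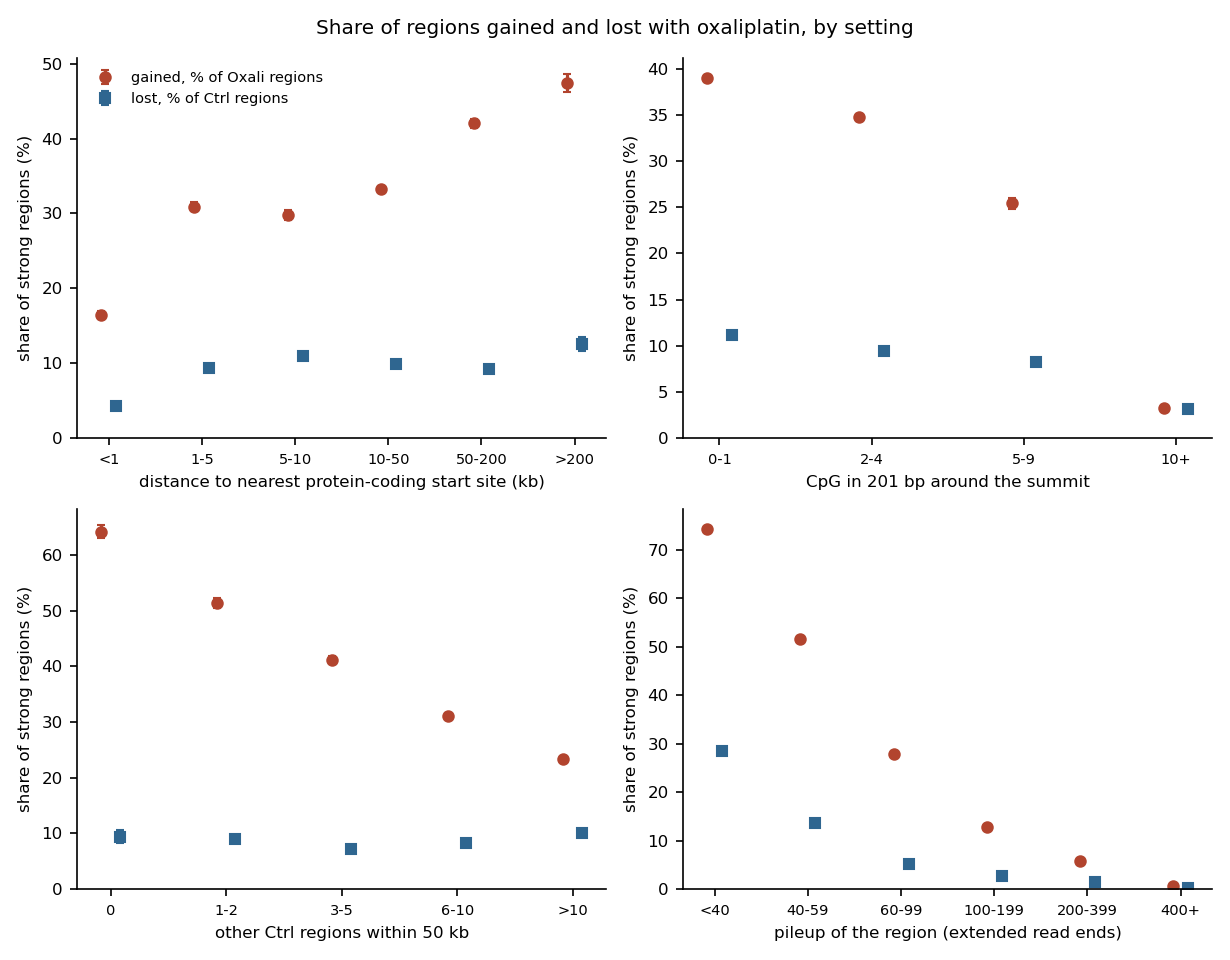
Share of strong Oxali regions that were gained (circles) and of strong Ctrl regions that were lost (squares), in %, by distance to the nearest protein-coding start site in kb, CpG count within 100 bp of the summit, other Ctrl regions within 50 kb, and pileup in extended read ends, with 95% Wilson intervals as bars. The gained share was 16.4% under 1 kb and 47.4% beyond 200 kb from a start site, and 74.2% at a pileup under 40 and 0.599% at 400 or more.

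The gained share also differed with the strength of the regions. Of Oxali regions with a pileup under 40, 74.2% were gained, and of those with 400 or more, 0.599%. At a pileup of 40 to 59 the gained share was 45.3% at start sites and 52.3% elsewhere, a smaller gap than over all regions (19.3% and 35.4%). At 100 to under 200 the order was reversed, with 23.3% at start sites and 10.9% elsewhere. The CpG class separated weak regions of like pileup. At 40 to 59, 53.8% of regions with 0 to 1 CpG and 18.9% of those with 10 or more were gained, while lost shares ran the other way, at 12.9% and 28.6%. At 100 to under 200 the gained shares were 13.1% and 10.9%. Few open neighbors also went with gains at this pileup, at 76.9% with no other Ctrl region within 50 kb and 40.6% with over 10, but at 100 to under 200 both stood at 15.2% and at 200 to under 400 the order was reversed, with 1.16% (0.395 to 3.35) and 7.97% (7.47 to 8.50). Lost shares ran the other way, at 8.63% with no other Ctrl region and 17.0% with over 10 at a pileup of 40 to 59, and at 0.395% and 7.98% at 60 to 99.

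Gained and lost regions differed in sequence. Exact matches to 21 motifs were counted on either strand in the window from 100 bp before to 100 bp after each summit. Only some of them are described here. The widest gap between the shares of gained and kept regions, -8.75 percentage points, was at the GC box GGGCGG. The shares are descriptions, with 95% Wilson intervals for counting error. Start sites made up 10.7% of gained and 21.5% of kept Oxali regions, and shares without them are given for AP-1 alone. The RUNX motif TGTGGTT was present in 13.4% (13.1 to 13.7) of gained regions, 9.68% of kept and 8.26% of lost regions, beside 10.9% of all strong Oxali regions. Among the 1000 strongest gains it reached 16.5%, and among the 1000 strongest losses 6.80%. Kept regions of like strength were not counted for any motif, so such shares may belong to strong regions in general. The same letters reversed, as a control, were found in 3.09% of gained and 2.57% of lost regions.

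AP-1, a dimer of Fos and Jun proteins that responds to stress, has the motif TGANTCA. It was found in 24.6% of gained, 22.7% of kept and 11.8% of lost regions, beside 23.3% of all strong Oxali regions. With start sites left out, gained and kept regions had the same 25.4%, and lost regions had 12.3%. Among the 1000 strongest gains the share was 35.7%, and among the 1000 strongest losses 9.90%. The steroid receptor hexamer AGAACA was present in 23.8% of gained, 19.6% of kept and 16.0% of lost regions (20.97% of all strong Oxali regions), and in 30.4% of the 1000 strongest gains. Its reversed letters were found in 13.3% of gained and 12.02% of lost regions, and the full steroid receptor element in 0.088% of gained and 0.089% of kept regions.

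The NF-κB decamer was found in 3.34% of gained regions overall but in 8.80% of the 1000 strongest, against 1.20% of the 1000 strongest losses. Its share over all strong Oxali regions was 2.67%, and the reversed sequence was found in 2.94% of gained regions. Among the 1000 strongest gains the reversed sequence was at 3.8%. The GATA motif AGATAA ran in the other direction, at 6.20% of gained, 6.33% of kept and 8.33% of lost regions, with 6.29% over all strong Oxali regions. Its reversed sequence gave 7.69% and 7.01% in gained and lost regions. CTCF motifs, which mark insulators, were less frequent in both changed sets, at 1.43% of gained and 1.87% of lost against 5.81% of kept regions and 4.39% of all strong Oxali regions. Among the 1000 strongest losses, however, the share was 5.10%.

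Repeated sequence was more frequent among the losses. At least 50% of this window was soft-masked as repeat in 29.5% of lost, 17.0% of gained and 15.2% of kept Oxali regions. A stretch of 20 bases that occurred again in the window was present in 11.1% (10.5 to 11.7) of lost regions and in 5.17% of gained regions. Kept regions of the Ctrl list stood at 4.81%. The lost region near Fgfr2 printed above is of this kind, with a repeated stretch of 37 bases, and so is a lost region in Igf2bp3, with 39. The lost region near Crygf lay entirely in masked sequence. The part of repeated sequence in the losses was not tested.

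Gains were spread over many genes. With a window of the gene body and 5 kb on each side, 11657 of 21911 protein-coding genes (53.2%) held a gained region and 4890 (22.3%) a lost one, with 3599 holding both. Longer genes held more, with 28.9% of genes under 10 kb and 91.4% of genes over 200 kb having a gain. Per 100 kb of window the longest genes held the fewest, with 1.70 gains in genes over 200 kb and 2.67 to 3.00 in the shorter classes. Of 2851 genes with at least 10 Oxali regions, 76 had no gain. These included Ano6, with 26 Oxali regions and 7 of its 34 Ctrl regions lost, the fibrillar collagen gene Col5a1 with 21, and Cdh1, which encodes E-cadherin, with 15.

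The genes with the most gains were long, with gene models of 380.2 to 4434.9 kb. Dlgap2, a scaffold of the postsynaptic density, had 38 gains among 49 Oxali regions, against 12 Ctrl regions with 1 lost. St6galnac3, a sialyltransferase gene, had 37 of 60, and Dgki, a diacylglycerol kinase gene, had 36 of 65. Ttc28 followed with 35 of 60, Pdzd2 with 32 of 48, Magi2, a scaffold of cell junctions, with 31 of 61 and Mecom, a zinc finger transcription factor gene, with 31 of 45. Both lists had a region at a start site of Magi2 and Mecom, Ctrl alone at one of Ttc28 and Oxali alone at one of Dgki. Neither list had one at Dlgap2, St6galnac3 or Pdzd2. Higher counts came from the gene models Gm20388 (244 gains), Fgfr2 (86) and Gm37240 (40), which span 4434.9, 2960.9 and 1391.1 kb in GENCODE M21 and overlap many other genes.

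Losses were found at fewer genes. Zbtb20, which encodes a zinc finger repressor, lost 33 of 89 Ctrl regions and gained 9 of 64 Oxali regions. Prkce, the gene of protein kinase C epsilon, lost 16 of 67, Fndc3b 13 of 51 and Thsd4 12 of 58. Cp, which encodes the copper carrier ceruloplasmin, lost 12 of its 18 Ctrl regions, a higher share than at the other genes named here for losses. Arid1b, a subunit of the BAF chromatin remodeler, and the kinase gene Hipk2 lost 10 each, of 55 and 43, as did Magi1 and Tbxas1, of 44 and 42. Gm20388 had 75 losses and Fgfr2 had 24.

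Some start sites were open in 1 list alone. A gained region lay within 1 kb of a start site of 3312 protein-coding genes, and 693 of these had no Ctrl region at any start site. The mirror case held for 774 and 166 genes. The strongest gain of this kind was at a start site of Pax8, a transcription factor gene of thyroid and kidney, at chr2:24445913-24446917, with a pileup of 195 in Oxali, 158 in Oxali + IFNγ and 93 in Cispl. Start sites of Prkg1 (cGMP-dependent protein kinase), Rp1 (a photoreceptor microtubule protein) and Abcc8 (the sulfonylurea receptor) had 170, 152 and 252, the last over a background of 39.8. Deup1, Aoc1, Vmn1r59, Gm11146, Cyp11a1 and Pla2g5 completed the 10, with pileups from 118 to 154. All 10 were called in Cispl and in Oxali + IFNγ, and 4 in IFNγ at 20 to 32. These regions held 1 to 5 CpG, fewer than the 10 or more of the CpG-rich class above.

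The 10 strongest losses of this kind had pileups from 53 to 278. Pik3r6, a regulatory subunit gene of phosphoinositide 3-kinase γ, had 278 in Ctrl over a background of 89.5. Itih4 was also among them. Adrb3, the gene of the β3 adrenergic receptor, had 90 over 19.6, and was called in Oxali + IFNγ at 35. Aipl1, Kcnh4, Prss38, Defb29, Pou5f2, Plac8 and C1qtnf5 lay between 53 and 193. In Oxali + IFNγ 5 of these 10 were called and in IFNγ 7.

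Gene families differed widely in the share of their Oxali regions that were gained. Over all regions at protein-coding genes the share was 29.1%, and among 55 families with at least 50 Oxali regions it ran from 15.8% to 58.8%. The interval lay above the share of all genes in 15 families and below it in 11. Vomeronasal receptors, which detect pheromones, had 60 of 102 regions gained (58.8%, 49.1 to 67.9), as at Vmn1r86 (3 of 4) and Vmn1r85 (3 of 3). They also had 16 of 59 Ctrl regions lost (27.1%, 17.4 to 39.6), beside 8.88% over all genes. Protocadherins, neuronal adhesion proteins, had 30 of 55 (54.5%), many in windows that several genes of the cluster share, and glutamate receptors, the excitatory receptors of synapses, 100 of 198 (50.5%, 43.6 to 57.4).

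Among glutamate receptor genes Grik4 had 18 gains of 32 Oxali regions, Grm8 had 13 of 19, Grid1 had 11 of 16 and Gria3 had 5 of 5 with no Ctrl region. Pax factors had 33 of 73 (45.2%), led by Pax5, the B cell factor, with 15 of 23, and Pax3 with 5 of 5. Calcium channels had 154 of 346 (44.5%), with 23 of 50 at Cacna1c, 18 of 31 at Cacna1d and 17 of 25 at Cacna2d3. Protocadherins had 0 of 26 Ctrl regions lost, with an interval up to 12.9% that includes the 8.88% of all genes.

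The lowest gained shares were mostly at families that every cell uses. Histones had 21 of 133 (15.8%, 10.6 to 22.9), ribosomal proteins 50 of 286 (17.5%), NADH dehydrogenase subunits and assembly factors 26 of 148 (17.6%), keratins, the filament proteins of epithelia, 20 of 111 (18.02%) and mitochondrial ribosomal proteins 47 of 257 (18.3%). Restricting the comparison to Oxali regions with a pileup of 40 to 99 left fewer families apart from all genes. At this pileup the share over all genes was 37.7%, the interval lay above it in 9 of 54 families and below it in 2. Protocadherins (17 of 27), vomeronasal receptors (20 of 33), glutamate receptors (52 of 103) and calcium channels (74 of 151) stayed above, whereas ribosomal proteins (22 of 43) and mitochondrial ribosomal proteins (20 of 44) no longer lay below. Keratins (8 of 39) and integrins (21 of 87) did.

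**Figure D3:**
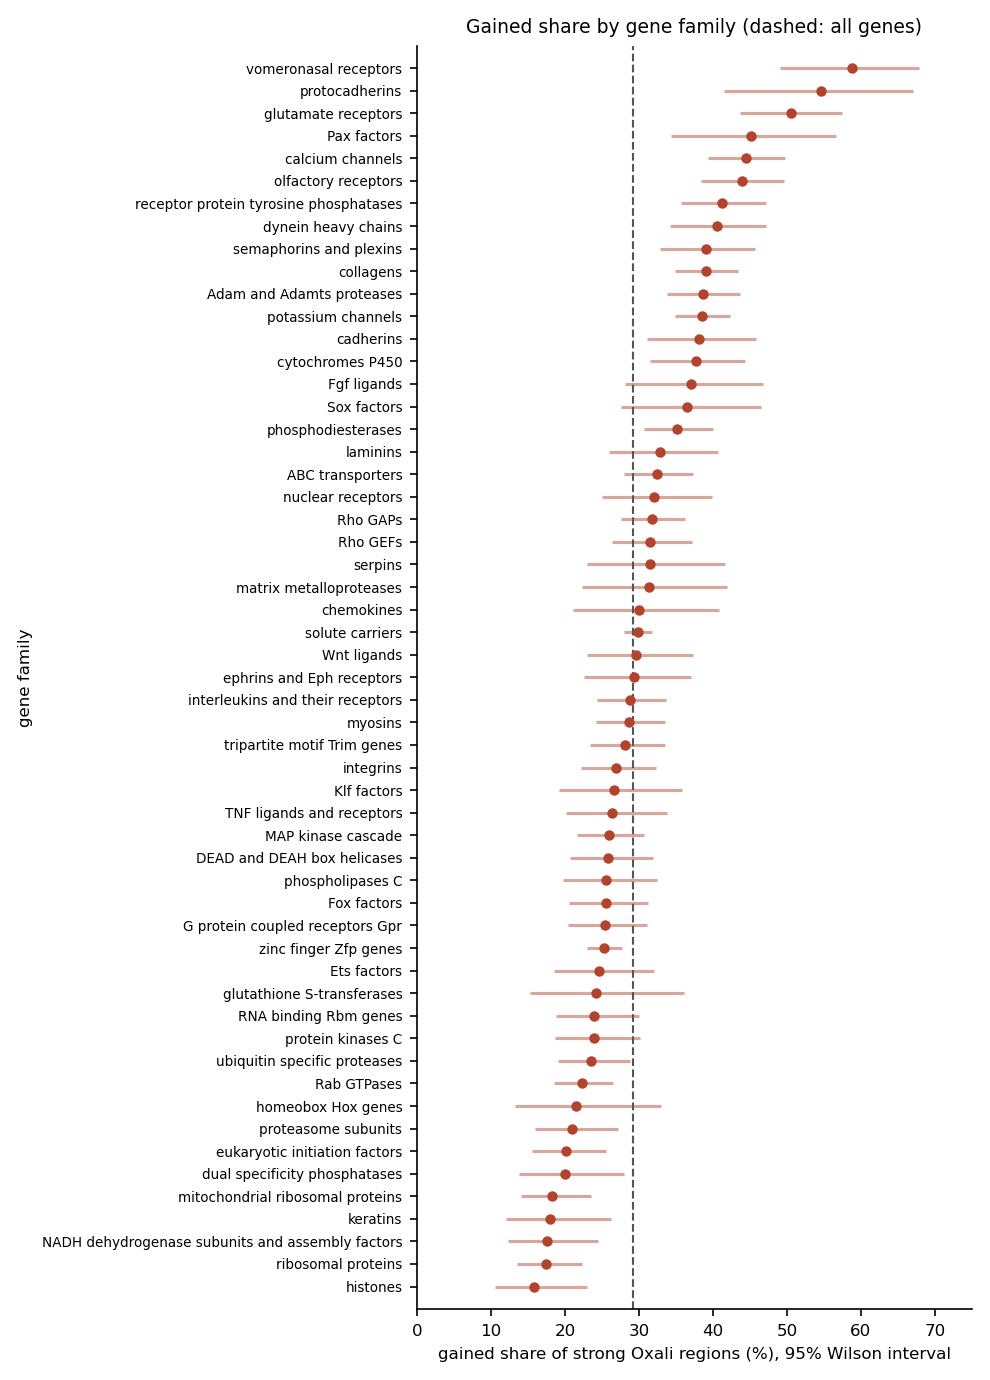
Gained share of strong Oxali regions (x axis, %) for each of 55 gene families with at least 50 such regions, with 95% Wilson intervals for counting error and the share over all protein-coding genes, 29.1%, as a dashed line. Vomeronasal receptors lie at the top with 58.8% and histones at the bottom with 15.8%.

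Gained shares of 18 gene lists chosen for the cell line and the treatments ran from 17.4% to 31.9%. In none of the 18 did the interval lie above 29.1%, and in 6 it lay below. Among regions with a pileup of 40 to 99 it lay below the 37.7% of all genes in 3 of 15 lists. Over all protein-coding genes 8.88% of Ctrl regions were lost. At start sites open in both lists, the median log2 ratio of Oxali to Ctrl ran over these lists from -0.69 at AP-1 and ATF factors and -0.62 at p53 targets to -0.12 at senescence genes and 0.08 at epithelial to mesenchymal transition genes. Over the 13113 protein-coding genes with a shared start-site region, each taken at its strongest, it was -0.45. DNA replication genes had 37 of 116 regions gained (31.9%, 24.1 to 40.8), with a gain at 18 of 25 genes (72.0%, beside 53.2% of all genes) and 4 of 92 Ctrl regions lost (4.35%). Their gained share minus that of all genes turned from 2.75 to -5.17 percentage points when the gene window reached 50 kb on each side. Pola1, the catalytic subunit of DNA polymerase α, had 5 gains of 8 regions, the strongest with a pileup of 231, at 303953 bp from the start of the gene and 45544 bp from any Ctrl region. Cdc45 and Mcm6, parts of the replicative helicase, had intronic gains at 177 and 255. Rrm2 had 3 gains, the strongest upstream of the gene at 465 with a background of 241.7, beside the intronic loss named above.

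Runx genes, whose motif was more frequent in gained regions, had 28 of 92 regions gained (30.4%, 22.0 to 40.5) and 2 of 69 Ctrl regions lost. Runx1 held 14 gains among 37 regions and Runx2 12 among 39, while Runx3 held 2 of 10. At their start sites the log2 ratio of Oxali to Ctrl levels, each pileup divided by the genome background of its list, was -0.53 for Runx1, 0.03 for Runx2 and -0.02 for Runx3. All 3 were within 2-fold, and the Runx2 ratio turns negative when levels are scaled to the median of shared regions, 0.19.

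Interferon signaling genes had 32 of 125 regions gained (25.6%) and 5 of 101 lost, with a gain at 20 of 26 genes (76.9%), beside 53.2% of all genes. Start sites of Isg15, Mx1 and Oas1a, all induced by interferon, had an Oxali region and no Ctrl region. The Isg15 region, at chr4:156200729-156200985, had a pileup of 359 with a local background of 145.9, and the strongest Oas1a gain, in an intron, had 81 over the genome background. Gbp2 also had a gain, with 88, that rose from the genome background. The 23 start sites open in both lists had a median log2 ratio of -0.42, beside -0.45 over all genes. Among them, those of Ifit1 (104 in Ctrl, 242 in Oxali) and Ifit3 (105 and 203) had log2 ratios of 1.33 and 1.06, while Ifngr1 (2133 and 937) had -1.08.

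Class I antigen presentation genes had 16 of 66 regions gained (24.2%, 15.5 to 35.8) at 9 of 17 genes (52.9%, beside 53.2% of all genes). The gene with the most was Nlrc5, the transactivator of class I genes, with 8 of its 17 regions gained and 1 of 12 Ctrl regions lost. B2m had 2 gains of 4 regions, the stronger with a pileup of 126 over 48.8, while at its start site the pileup was 1220 in Ctrl and 608 in Oxali, a log2 ratio of -0.90, the lowest of a list with a median of -0.44, beside -0.45 over all genes. NF-κB pathway genes had 22 of 116 (19.0%, 12.9 to 27.0), below the share of all genes, with 4 of 7 regions gained at Nfkbiz and 2 of 4 at Rel. The 19 start sites of this list open in both had a median log2 ratio of -0.43, beside -0.45 over all genes. Traf1 had the highest, 69 in Ctrl and 226 in Oxali, a log2 ratio of 1.82.

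The stress and damage response lists had gained shares from 17.4% to 27.2%. p53 targets had 24 of 120 regions gained (20.0%, 13.8 to 28.0), with 3 of 4 at the death receptor gene Fas, while regions beside Btg2 and Bax were lost at pileups of 460 and 261, with backgrounds of 218 and 150.1. AP-1 and ATF factors had 20 of 115 (17.4%, 11.6 to 25.3), with a gain beside Junb of 982 over a background of 398.9 and 650 bp from a Ctrl region. Crosslink and excision repair genes had 41 of 151 (27.2%), with 7 of 13 regions gained at Ercc6, which acts in transcription-coupled repair, and 7 of 20 at Fancc, a Fanconi anemia gene. Histone acetyltransferases and deacetylases had 50 of 213 (23.5%), of which 12 were at Hdac9 (of 17 regions) and 10 at Hdac4 (of 36), and 0 of its 22 shared start sites differed by 2-fold, beside 3.39% higher and 1.04% lower over all genes.

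Androgen and glucocorticoid response genes, with 1 member that is not reported left out, had 34 of 176 regions gained (19.3%, 14.2 to 25.8) and 16 of 161 lost (9.94%, 6.21 to 15.5). Per1 and Sgk1, targets of the glucocorticoid receptor, had losses at 608 and 493 over backgrounds of 354.3 and 298.3, 50 bp and 121 bp from an Oxali region. In the same list Ndrg1 had 8 of 9 regions gained. The 14 start sites open in both lists had a median log2 ratio of -0.48, beside -0.45 over all genes, and Tmprss2 had the highest, 33 in Ctrl and 98 in Oxali (log2 ratio 1.68). Prostate epithelial genes had 31 of 134 gained (23.1%) and 8 of 111 lost, with 8 of 15 gained at Trp63, a basal cell factor, and 3 of 12 at Pax8.

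Genes of cell state had scattered gains. The epithelial to mesenchymal transition list had 41 of 159 (25.8%), including 5 of 7 at Zeb1 and 6 of 16 at Zeb2, which repress E-cadherin. The senescence list had 29 of 99 (29.3%), with 2 of 3 at Il1b, the stronger at a pileup of 119 and 7894 bp downstream of its start. TGF-β and BMP genes had 54 of 223 (24.2%), with 5 of 8 at Inhba and 7 of 24 at Smad3. In that list 24 Ctrl regions were lost (11.9%, 8.16 to 17.2, beside 8.88% over all genes), among them 5 of 30 at Tgfbr3. Wnt genes had 54 of 253 (21.3%), with 7 of 16 at Lef1. YAP and TEAD targets had 40 of 187 (21.4%) and Myc partners 16 of 72 (22.2%). Nucleic acid sensing genes had 7 of 39 (17.9%), and Tlr9, a sensor of CpG DNA, lost 2 of 4 regions.

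Gains were often solitary but some came in runs. When gained regions no more than 10 kb apart were joined, 33440 groups resulted, of which 68.6% held a single region and 535 held 5 or more. In 170 of the latter no Ctrl region lay between. The largest of these were 10 gains over 26.5 kb in Hspg2, which encodes the basement membrane protein perlecan, 10 over 17.8 kb near Twistnb, 9 over 30.9 kb near Plpp3 and 9 over 23.3 kb in Tspan12. Their highest pileups were 57, 85, 82 and 65. Lost regions formed 31 groups of 5 or more, and 5 of these held no Oxali region, including 5 losses over 16.7 kb in Zbtb20.

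Most of the genome had more gains than losses. Among 2737 windows of 1 Mb, 2362 had more gains and 69 had more losses. In the 2539 windows with an Oxali region the medians were 19 gained and 2 lost. The window with the most gains, chr15:58000001-59000000, held 74 and includes Fer1l6 and Mtss1. Others lay at chr8:121000001-122000000 (73), chr5:36000001-37000000 (66, with Sorcs2), chr2:92000001-93000000 (61, with Phf21a) and chr7:64000001-65000000 (61, with Apba2). The chromosome 7 window had the highest gained share of these, 56.5% of 108 Oxali regions.

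Losses were also dense in a few windows. A window at chr8:20000001-21000000, over the defensin genes, held 52 losses and 41 gains. Windows with Hipk2 on chromosome 6 (35 losses), Zbtb20 on chromosome 16 (32), Prkce on chromosome 17 (32) and Nrf1 on chromosome 6 (32) followed. The Zbtb20 window had the highest lost share of these, 29.9% of 107 Ctrl regions.

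Over the autosomes and chromosome X, gained shares ran from 27.5% on chromosome 11 to 36.7% on chromosome 18, and lost shares from 7.59% on chromosome 1 to 11.1% on chromosome X. On chromosome X 148 of 369 losses lay in 2 windows of 1 Mb, and without them the lost share was 8.19% (7.21 to 9.28). Chromosome 19, with 29.1%, was the next lowest for gains, and chromosome 1, with 35.6%, the next highest. The Y chromosome had 10 gains among 60 Oxali regions and 4 losses among 57 Ctrl regions.

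**Figure D4:**
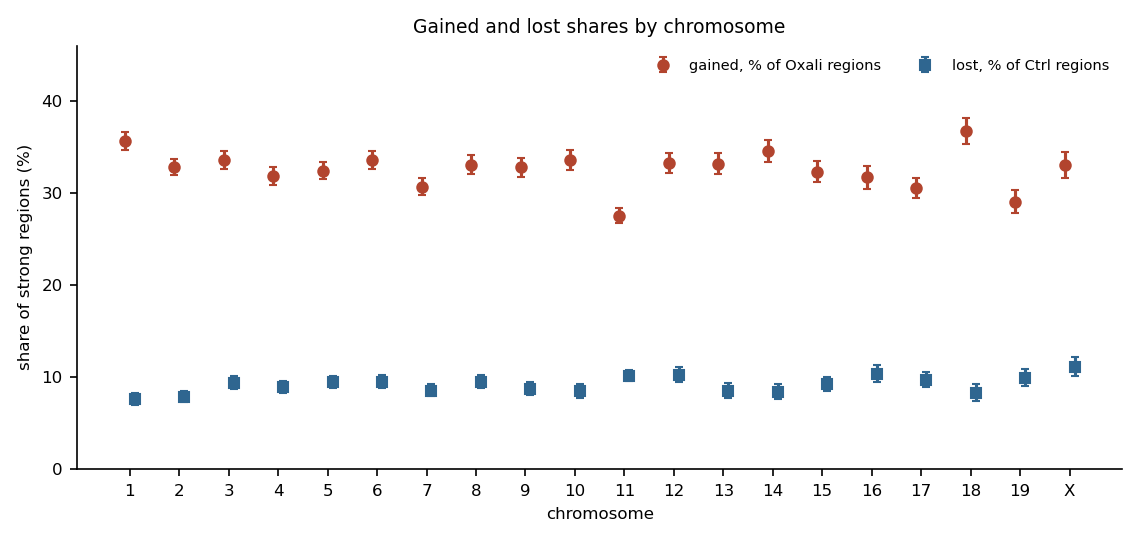
Gained share of strong Oxali regions (circles) and lost share of strong Ctrl regions (squares) on each chromosome, in %, with 95% Wilson intervals for counting error. Outside the sparse Y, gained shares lay between 27.5% on chromosome 11 and 36.7% on chromosome 18, and lost shares reached 11.1% on chromosome X, or 8.19% without its 2 windows with the most losses.

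Levels also differed in regions called in both lists. The highest pileup of each list was divided by the genome background of that list, and 102451 shared regions were compared. Their median log2 ratio of Oxali to Ctrl was 0.19. At least a 2-fold higher level with Oxali was seen in 14793 regions (14.4%) and at least a 2-fold lower level in 760 (0.742%). The balance went with the level in Ctrl. Regions with a Ctrl pileup under 50 had a median log2 ratio of 0.60, those from 300 to under 1000 had -0.09 and those with 1000 or more had -0.52. At start sites the median was -0.20 and elsewhere 0.28, and with 10 or more CpG it was -0.44. Classes by Ctrl level carry the selection on that level, so the mean of both pileups was used as well. By that mean the median was 0.25 under 50, 0.46 from 50 to under 100 and -0.52 at 1000 or more. Scaling to the median of shared regions lowers every ratio by 0.19, and 10276 regions were then higher and 2247 lower, or 82.1% higher among those past 2-fold in place of 95.1%.

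**Figure D5:**
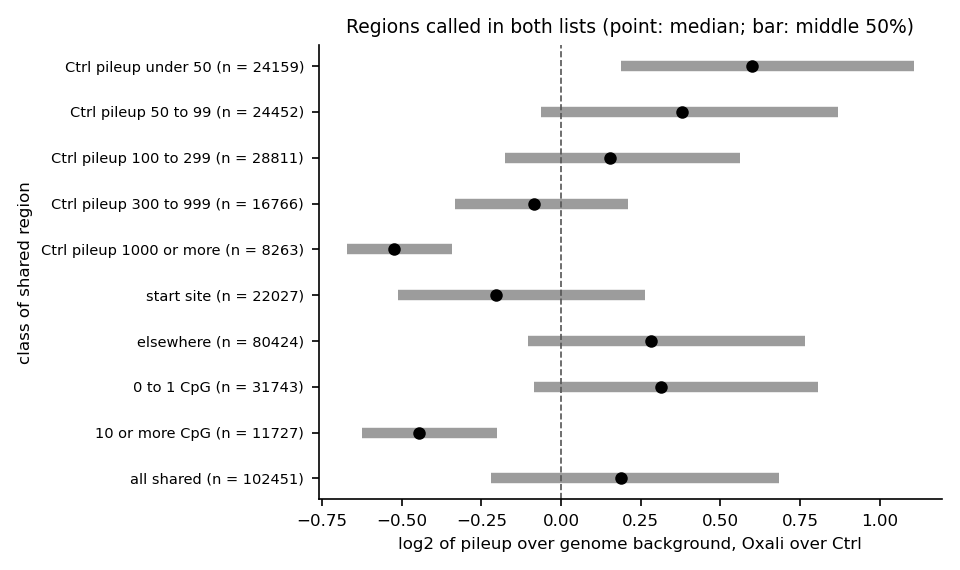
Log2 ratio of Oxali to Ctrl level in shared regions (x axis), by Ctrl pileup, position and CpG content, with the median as a point and the middle 50% as a bar. The median was 0.60 for regions with a Ctrl pileup under 50, -0.52 for those with 1000 or more and -0.44 for those with 10 or more CpG.

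The 10 shared regions with the largest rise lay outside start sites. Their Ctrl pileups were 22 to 42, and since a pileup of at least 100 in either list was required, each entered through Oxali alone. A region 52630 bp upstream of Itm2a had a pileup of 38 in Ctrl and 715 in Oxali, a log2 ratio of 4.34 (3.87 to 4.85, exact binomial interval for counting error). In Oxali + IFNγ it stood at 635, in Cispl at 224 and in IFNγ at 65. Crocc2 had 34 and 467 in Ctrl and Oxali, and the lipid droplet gene Plin4 had 24 and 306. An intron of Ppara, which encodes a fatty acid sensing nuclear receptor, had 42 and 434. Regions near Acox3, Mtx2, Xrcc2, N4bp1 and in Gsap and Fras1 completed the 10, with 247 to 442 in Oxali. Each had a CpG count of at most 3, and all 10 were called in Cispl and Oxali + IFNγ.

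The 10 largest falls were in regions with Ctrl pileups from 124 to 899 and Oxali pileups from 24 to 120. All but the region near Egr1 entered through Ctrl alone. A region 286428 bp downstream of Gadd45g had 899 in Ctrl and 95 in Oxali, a log2 ratio of -3.14 (-3.46 to -2.83). Its level was 106 with Oxali + IFNγ, 425 with Cispl and 466 with IFNγ. The region 4333 bp downstream of the start of Egr1, an immediate early gene, had 574 and 120 in Ctrl and Oxali, and Carmil1 had 212 and 39. Regions near Igfbp2, Mtf2, Galnt15, Lama5 and Ano6 and in Prim2, a primase subunit gene, and Lhfpl2 were also lower, with log2 ratios from -2.26 to -1.99. All 10 were called in Cispl and IFNγ, at pileups from 45 to 425 and from 44 to 466.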

How the data were processed

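ATAC-seq was performed on 10 libraries of Myc-CaP cells, 2 in each of 5 groups, of which the 4 libraries of Ctrl and Oxali are compared here. Per the study's methods and the submitters' processing notes, the authors trimmed adapters with cutadapt, aligned reads to mm10 with Bowtie2 2.2.8, removed alignments under a mapping quality of 30, duplicates and mitochondrial reads with SAMtools, and pooled both libraries of a group. They called peaks on the pool with MACS2 2.1.0 at a p-value of 0.01 and removed blacklisted regions. The lowest −log10 p was 2.99 in the Cispl list but 2.00 in each other list, so calls in Cispl met a stricter limit. Each deposited list gives, as made by the authors, the fold enrichment of a summit over its local background, the −log10 p and −log10 q values, and the summit position. The deposited values hold no read totals, so depth is known only through the genome background of each list, 12.14 for Ctrl and 11.27 for Oxali.

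Summits of one interval were counted once. Pileup and background were recovered from fold and −log10 p. Genes and start sites came from GENCODE M21 (55413 genes, 21911 protein-coding), a start site reached 1 kb on each side, and sequence was RefSeq GRCm38. Intervals for shares are 95% Wilson intervals, and they reflect the error of counting alone. With 1 pooled list per group no test between groups was possible and no p-value was computed. Scripts used Python 3.11.15 with NumPy 2.4.6, pandas 2.3.3, SciPy 1.17.1 and pysam 0.24.0, and were tested on simulated lists.

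The regions, gene lists, families and motifs were chosen with earlier results of these data known. The text names the 10 strongest gained and lost regions, the 10 genes with the most of each, the 10 strongest start sites of genes with none in the other list, the 10 largest rises and falls among shared regions with a pileup of at least 100 in either list, the strongest members of each list, the 5 windows with the most of each and the 5 families at either end of the gained share. Genes named for other counts, such as those without a gain, further members of a list or family, and windows beyond the first 5, were chosen after their values were seen. A few genes and windows that this rule covers are not reported here. A gene list and chromosome X are therefore also described without them, a choice made after the values were seen. Alternatives covered the q-value limit, the distance that counts as shared, the number of regions, depth, window sizes and scaling.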

Additional observations from a re-analysis of the deposited data

How the results depend on the processing

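Each value below replaces 49898 gained and 10769 lost regions, an 82.2% share of gains among changes, a 10.7% start-site share of gains and a 23.3% median gained share over 18 gene lists. At a q-value limit of 1e-05 there were 5956 losses and the shares were 85.9%, 11.3% and 19.0%. With all deposited regions the share of gains was 81.0%, and at matched depth it was 82.85%. When another region within 500 bp counted as shared, the shares were 83.7%, 7.93% and 16.7%. With an equal number of regions 24792 were gained and 19611 lost (55.8%), with 11.97% at start sites. With a pileup of at least 60, chosen after seeing the data, 12215 were gained and 1800 lost (87.2%), with 19.3% at start sites. A start-site window of 500 bp gave 5.90%, and gene windows of 50 kb gave 19001 genes with a gain in place of 11657. Scaling shared regions to their median ratio gave a median log2 ratio of 0 and 2247 lower regions, no scaling gave a median log2 ratio of 0.082 and 1428 lower regions, and a 1.5-fold limit gave 29903 higher and 7779 lower. Gains outnumbered losses in every alternative run. The remaining 24 summary values stayed within their limits. So did 112 of the 134 values for single gene lists, single motifs and the chromosomes with the lowest and highest gained share. No list or motif whose interval lay to one side of its reference changed sides. The cause of these shifts was not tested.

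No paired analysis was possible because the libraries of each group were pooled before peaks were called, and leaving out each library was not run for the same reason. Weak regions near the calling limit are counted as gained or lost without a measure of how they vary between cultures.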
